A study of Homo sapiens with 16 samples.

Results

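Retinoic acid (RA) acts through nuclear receptors that bind DNA as pairs, and the cell sets how much of it reaches them with a short chain of transport proteins and enzymes. STRA6 takes retinol into the cell, RDH10 oxidises retinol to retinaldehyde and DHRS3 reduces it back, and ALDH1A2 makes RA from retinaldehyde. CRABP1 and CRABP2 bind RA in the cytosol, CRABP2 being the protein known to pass it to the receptors, and the cytochrome P450 enzymes CYP26A1, CYP26B1 and CYP26C1 hydroxylate it for breakdown. Induction of the breakdown enzymes by their own substrate is a well-known feedback of the pathway.

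These 9 genes were followed by RNA sequencing in SK-N-BE(2)C, a human neuroblastoma line with MYCN amplification, classed as adrenergic. They were chosen by symbol from a table of 27037 genes. The 16 samples formed 4 groups of 4 replicates, cultured for 5 days with the vehicle DMSO, with 10 µM all-trans RA, with 1 µM palbociclib (PB), which blocks CDK4 and CDK6, the kinases of the G1 phase, or with both agents (PB+RA). All replicates came from the same line, as passages plated in separate experiments, so their spread is that of 1 line. The RA was added as the finished acid, which is the product of the uptake and synthesis steps.

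Libraries held 19.5 to 31.6 M counts, and 15415 genes passed the filter on low counts, 7 of the 9 members among them. ALDH1A2 and CYP26C1 did not pass. CYP26A1 passed only through the groups given RA. The 8 markers of the adrenergic type were all detected, at a summed 2330 to 3700 counts per M counts of the library (CPM), and 7 markers of other cell types summed to 29.4 to 125 CPM. In each group 1 of the 7 was at 0 in all libraries, the endothelial marker PECAM1 in PB and the glial marker SOX10 elsewhere, and neither had over 1 count in any library. The mesenchymal marker LUM was at 44.8 ± 14.3 CPM (SD, n = 4) in DMSO and 77.9 ± 13.3 in PB, and at 22.1 ± 7.52 and 23.1 ± 8.05 in the groups RA and PB+RA, and its part in the results below was not tested. CRABP1 levels split replicates 1 and 2 from the other two in every group, so values within each set of replicates are given where they change a call of a member or turn its direction under PB. For bulk samples such as these, more RNA per cell and more cells with the RNA cannot be told apart.

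Each gene's start was first searched for the DNA word that RA receptor pairs bind, because the sequences differ between members in a way that the expression values can be set beside. The word is a direct repeat of 6 bases, searched on both strands as AGGTCA, as the same word with T as the third base, or as either of these with G as the first base, with 1, 2 or 5 bases between the copies (DR1, DR2, DR5). CYP26A1 held 3 DR5 matches within the 5000 bases before the start of its canonical transcript, and it was the only 1 of 19848 protein-coding promoters with that many (0.00504%). The cut-off of 3 equals the count of CYP26A1 itself, so this share describes the gene and tests nothing about its expression. At least 1 DR5 was held by 1.11% of these 5000-base windows, and by 0.0554% of windows from 250 bases before to 50 after the start. The 3 elements are shown with 6 flanking bases on each side, because CYP26A1 was the gene with the highest fold change in the groups given RA, and the capitals mark the paired 6-base words.
CYP26A1 -90 to -74, chr10:94833554-94833582, minus strand: acaattAGTTCAcccaaAGTTCAtcttta
CYP26A1 -1976 to -1960, chr10:94831668-94831696, plus strand: ctgcagGGGTCAcaggcGGGTCAggcccg
CYP26A1 -3371 to -3355, chr10:94830273-94830301, minus strand: tcttctGGTTCActaagGGGTCAgctcag

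Positions count from the first transcribed base as 0, and coordinates are of GRCh37. The element nearest the start lies in the untranslated first exon of another CYP26A1 transcript. Both distant elements lie in no annotated exon, within an intron of an unnamed gene model and in the 3934 bases between the end of CYP26C1 and the start of CYP26A1 on chromosome 10, so CYP26C1, the neighbour transcribed in the same direction, ends upstream of them. CYP26B1, on chromosome 2, held no DR1, DR2 or DR5 in the same windows. The 150 bases before its start are given as the contrast, since CYP26B1 was the other breakdown enzyme that rose, and they consist largely of C and G.
CYP26B1, chr2:72374992-72375141, minus strand: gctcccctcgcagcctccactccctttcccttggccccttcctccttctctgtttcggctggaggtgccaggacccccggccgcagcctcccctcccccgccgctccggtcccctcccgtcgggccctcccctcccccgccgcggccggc

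Among the other members, CRABP2 held a DR1 at -457 to -445, a spacing found in 2.11% of the 5000-base windows.
CRABP2 -457 to -445, chr1:156675814-156675838, minus strand: ggatccAGTTCAgGGTTCAatggag

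CRABP1 and ALDH1A2 each held a DR2 farther out, at -4804 and -2186, a spacing found in 24.2% of the windows. DHRS3, STRA6, RDH10 and CYP26C1 held none of the 3. A match is a description of these letters, and the absence of one says only that these letters are not in this window.

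**Figure D1:**
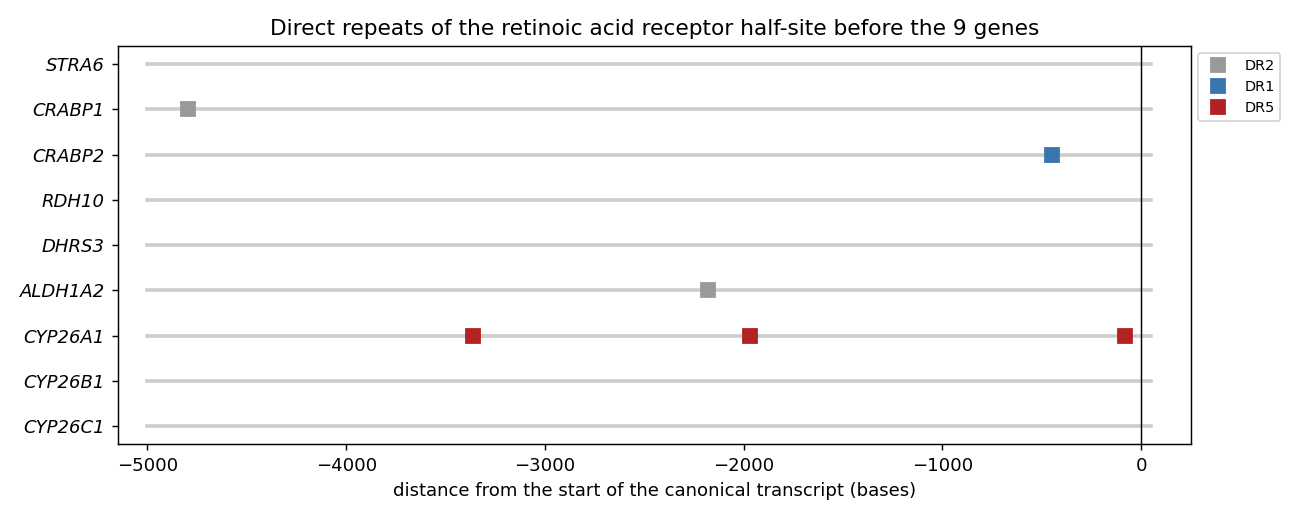
Positions of DR1, DR2 and DR5 matches (squares, coloured by spacing) in the 5000 bases before to 50 bases after the canonical start of each of the 9 genes; the x axis is the distance from the start in bases and each grey line is 1 gene. CYP26A1 holds 3 DR5 matches, CRABP2 1 DR1, CRABP1 and ALDH1A2 1 DR2 each, and the other 5 genes none.

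The question put to the 4 groups was what RA and PB each do to these genes, and what each adds to the other. Of the 7 members tested, RA raised 5, PB 1 and PB+RA 6 over DMSO, where a gene was called at an adjusted p below 0.05 in edgeR's quasi-likelihood test together with a log2 fold change beyond 0.5. Among all 15415 genes, the share called higher was 10.8% with RA, 16.9% with PB and 24.0% with PB+RA. RA added to PB raised 6 members, against 9.02% of all genes. PB added to RA raised 2, against 14.9% of all genes. The members counted with RA, with PB+RA and with RA added to PB include CYP26A1. It passed the filter on low counts only through the groups given RA, so its calls there were not independent of the filter. With replicate number as a block, 3 members were called with PB (STRA6 and CYP26B1 higher, CRABP1 lower) and 4 with PB added to RA (STRA6, CYP26B1 and CYP26A1 higher, CRABP1 lower). The shares of all genes are from the fit without the block. They were not taken with it, so they cannot be set beside these blocked counts. By a second measure, the libraries of the higher group all lay above those of the lower group for 6 members with RA (19.3% of all genes), 2 with PB (25.7%), 6 with PB+RA (31.4%), 6 with RA added to PB (16.3%) and 1 with PB added to RA (23.6%). The median log2 fold change of the tested members was 1.94 under RA, -0.10 under PB and 2.10 under PB+RA, against 0.01, 0.03 and 0.04 over all genes. In edgeR without the block, fitted to all 16 samples, 0 members were called lower in any of the 5 comparisons, where 11.3% (PB), 2.54% (RA), 17.9% (PB+RA), 7.27% (RA added to PB) and 14.1% (PB added to RA) of all genes were. At an unadjusted p below 0.05 in edgeR, 2 members (CRABP1 and CRABP2) lay lower under PB. The share of all genes at that looser threshold was not taken, so this count has none beside it. DESeq2 called 0 members lower. CRABP1 was called lower with the block, as above, and under other settings given with its values.

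**Figure D2:**
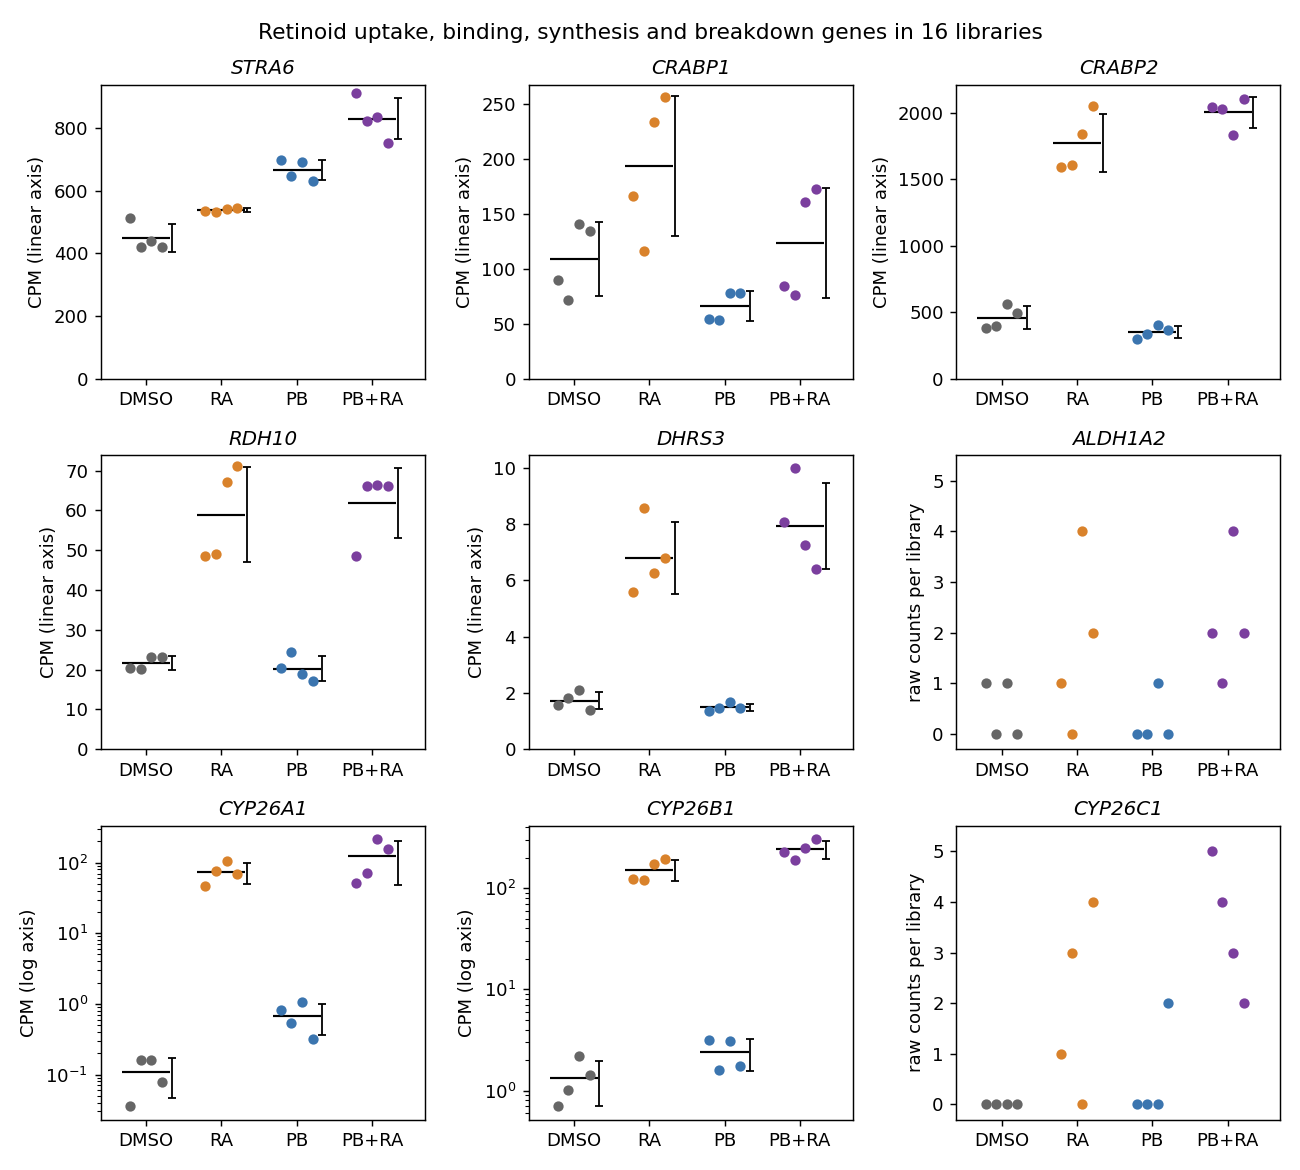
Level of each of the 9 genes (y axis) in the 4 groups (x axis); each point is 1 library, in order of replicate 1 to 4 from left to right, and the line and bar are the mean and SD of 4 libraries. Levels are CPM, on a log axis for CYP26A1 and CYP26B1, and raw counts without a mean for ALDH1A2 and CYP26C1. In 5 genes (CYP26A1, CYP26B1, CRABP2, RDH10 and DHRS3), all 8 libraries given RA lie above all 8 without it.

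The breakdown enzymes gave the steepest change. CYP26A1, the enzyme whose upstream elements are shown above, had 1, 4, 5 and 2 counts in DMSO replicates 1 to 4, and 1156, 1857, 2841 and 1529 with RA. In CPM this was 0.109 ± 0.0626 against 74.6 ± 24.7 (SD, n = 4), a ratio of means of 687. The fitted log2 fold change was 9.35 ± 0.70 (SE, adjusted p 2.94e-07), the first of 15415 in rank, and its size is imprecise because DMSO held 12 counts in all. CYP26A1 passed the filter only through the groups given RA. Its adjusted p and rank where RA was added thus describe it and are no independent test. PB alone gave 19, 11, 22 and 7 counts, each above each of the DMSO counts, and 0.677 ± 0.319 CPM. That difference, 2.58 ± 1.33 on the log2 scale, was not called (adjusted p 0.115, 95% interval -0.26 to 5.42) and was called by DESeq2 (2.61, adjusted p 0.00031).

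With PB+RA, CYP26A1 stood at 51.4, 71.5, 213.8 and 156.9 CPM in replicates 1 to 4. Replicates 3 and 4 thus stood about 3 times as high as replicates 1 and 2 (ratio of means 3.02), while within RA the same ratio was 1.44. Against RA, the log2 difference was 0.70 ± 0.36 (adjusted p 0.108) without a replicate block and 0.56 with it (adjusted p 0.0251). It was -0.02 in replicates 1 and 2 alone and 1.06 in replicates 3 and 4 alone (adjusted p 0.963 and 0.0349). Single libraries moved it as well, to 0.28 without PB+RA replicate 3 (adjusted p 0.5) and to 0.94 without PB+RA replicate 1 (adjusted p 0.0214). The difference between the sets was not tested. Over PB alone, the addition of RA raised it by 7.47 ± 0.56 (adjusted p 2.08e-07), the second highest of all genes.

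CYP26B1, a related enzyme on another chromosome, was low but present in DMSO at 0.709, 1.02, 2.18 and 1.43 CPM in replicates 1 to 4. RA brought it to 124, 121.3, 171.6 and 193.2 CPM, a log2 fold change of 6.79 ± 0.29 (adjusted p 7.99e-10) and the fourth highest of all genes. With PB+RA it reached 225.6, 192, 251 and 304.4 CPM. This was higher than RA in 4 of 4 replicate numbers, by ratios of 1.46 to 1.82, although the lowest PB+RA library lay below the highest RA library. The log2 difference of 0.65 ± 0.20 was called (adjusted p 0.0122), and it was not called by DESeq2 (0.66, adjusted p 0.0729).

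PB alone moved CYP26B1 from 1.34 ± 0.637 to 2.40 ± 0.829 CPM, with overlapping groups. The log2 difference was 0.82 ± 0.38 (adjusted p 0.0797). Blocking on replicate number brought a call (0.83, adjusted p 0.026), and so did DESeq2 (0.81, adjusted p 0.0455). It was 1.47 in replicates 1 and 2 alone (adjusted p 0.00944), 0.35 in replicates 3 and 4 alone (adjusted p 0.558) and 1.18 without DMSO replicate 3 (adjusted p 0.0221).

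CYP26C1, which lies upstream of CYP26A1 on the same strand, stayed near the limit of detection. It had 0 counts in all 4 DMSO libraries, 1, 3, 0 and 4 under RA, 0, 0, 0 and 2 under PB, and 5, 4, 3 and 2 under PB+RA. This makes 8 counts over the RA libraries and 14 over the PB+RA libraries, while 0 over the 110 M counts of DMSO allows up to 3 for counting error alone, so no fold is given. All 4 PB+RA libraries held it and no DMSO library did. The unnamed gene model mentioned above lies on the same strand and shares exonic bases with CYP26C1 and with CYP26A1. Strand therefore cannot separate its reads from theirs.

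Levels of different genes were compared per kilobase of exon. The length was that of all annotated exons of a gene merged, whichever transcript was expressed, so such comparisons depend on it. On this scale CYP26A1 and CYP26B1 were alike with RA, at 25.2 ± 8.33 and 31.5 ± 7.36 CPM per kb. In DMSO they were at 0.0366 ± 0.0211 and 0.276 ± 0.132. CYP26A1 thus made up 7.55% to 20.7% of the sum of both in DMSO libraries, 36.8% to 50.5% with RA, 22.7% to 35.6% with PB and 27.1% to 58.2% with PB+RA. The summed level of the 3 enzymes went from 0.313 ± 0.144 CPM per kb in DMSO and 0.728 ± 0.265 in PB to 56.7 ± 13.3 in RA and 92.0 ± 32.6 in PB+RA.

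The binding proteins moved apart. CRABP2, which carries RA to its receptors, was the most abundant member per kilobase in every group, and it rose from 381.4, 397.4, 562.4 and 493.8 CPM in DMSO replicates 1 to 4 to 1590, 1606, 1837 and 2052 with RA. The log2 fold change was 1.94 ± 0.13 (adjusted p 4.66e-08), with no overlap. PB+RA gave 2040, 2029, 1833 and 2101 CPM, which overlapped RA and differed from it by 0.16 ± 0.12 (adjusted p 0.299, 95% interval -0.10 to 0.42).

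PB alone lay on the other side of DMSO for CRABP2, at 298.7, 338.5, 406.6 and 368.1 CPM, lower in 4 of 4 replicate numbers. The log2 difference of -0.38 ± 0.12 had an adjusted p of 0.0174 but did not reach the fold minimum. The rise over PB was accordingly steeper than that over DMSO, at 2.47 ± 0.13 (adjusted p 3.69e-09). CRABP2 was the member nearest to a departure from additivity, the log2 fold change of PB+RA minus the sum of those of PB and RA, at 0.53 ± 0.17 (edgeR adjusted p 0.0982). With the block it passed (0.54, adjusted p 0.0159), as it did by DESeq2 (0.56, adjusted p 0.0267), in replicates 1 and 2 alone (0.63, adjusted p 0.00325) and without DMSO replicate 1 (0.66, adjusted p 0.0457). In edgeR 0 of the 7 members were called for this interaction, against 3.44% of all genes. At an unadjusted p below 0.05 in edgeR there was 1, and DESeq2 called 1. The share of all genes was not taken for either of these counts.

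CRABP1, the other RA-binding protein, went up with RA and down with PB within every replicate number, and its values depended strongly on the replicate. It stood at 89.7, 71.2, 141.2 and 134.2 CPM in DMSO, 166.8, 116.4, 233.5 and 256.7 with RA, and 54.6, 53.5, 78.0 and 78.0 with PB. Replicates 3 and 4 lay above replicates 1 and 2 in all 4 groups, with ratios of means from 1.44 to 2.08, so that the DMSO and treated groups overlapped.

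In the fit of all 16 samples without the block, neither change of CRABP1 was called (RA 0.82 ± 0.31, adjusted p 0.0557; PB -0.72 ± 0.32, adjusted p 0.0678). Once replicate number was a block, both were called, at 0.81 with RA (adjusted p 5.09e-06) and -0.69 with PB (adjusted p 1.57e-05). They were called within each set too, in replicates 1 and 2 and in replicates 3 and 4, under RA at 0.81 and 0.77 (adjusted p 0.0245 and 9.85e-09) and under PB at -0.59 and -0.86 (adjusted p 0.0435 and 1.68e-09). These sets are the ones that CRABP1's own levels split, with 2 libraries per group. Calls of CRABP1 within a set, here and below, are therefore no independent support. Some fits of CRABP1 without the block called 1 of the changes with RA and PB as well. These were, for PB, the fit of PB and DMSO alone (-0.74, adjusted p 0.0361) and that without DMSO replicate 2 (-0.91, adjusted p 0.0309), and, for RA, those with a stricter filter (0.82, adjusted p 0.0446), without DMSO replicate 3 (0.94, adjusted p 0.048) and without RA replicate 2 (0.98, adjusted p 0.0261). RA over DMSO ran from 1.63 to 1.91 times across the 4 replicate numbers, and PB over DMSO from 0.553 to 0.751 times.

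With both agents CRABP1 was close to its DMSO level, at 84.4, 75.8, 160.7 and 173.2 CPM. The log2 difference from DMSO was 0.15 ± 0.31 (adjusted p 0.69, 95% interval -0.52 to 0.82). Against RA it was lower in 4 of 4 replicate numbers, at 0.506 to 0.688 times, which was not called in all 16 samples without the block (-0.67, adjusted p 0.0846) and was called with it (-0.69, adjusted p 1.09e-05). It was also called in replicates 1 and 2 alone (-0.84, adjusted p 0.00957), in replicates 3 and 4 alone (-0.56, adjusted p 1.46e-07), without RA replicate 2 (-0.87, adjusted p 0.031) and without PB+RA replicate 4 (-0.85, adjusted p 0.0484). Against PB it was called higher (0.87 ± 0.32, adjusted p 0.0426), and that call was lost without PB replicate 1, 2 or 4 or PB+RA replicate 3 or 4 (0.69 to 0.96, adjusted p 0.0546 to 0.135), in replicates 1 and 2 alone (adjusted p 0.0789), with no filter on low counts (adjusted p 0.109) and after a correction for GC content and length (adjusted p 0.0614).

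**Figure D3:**
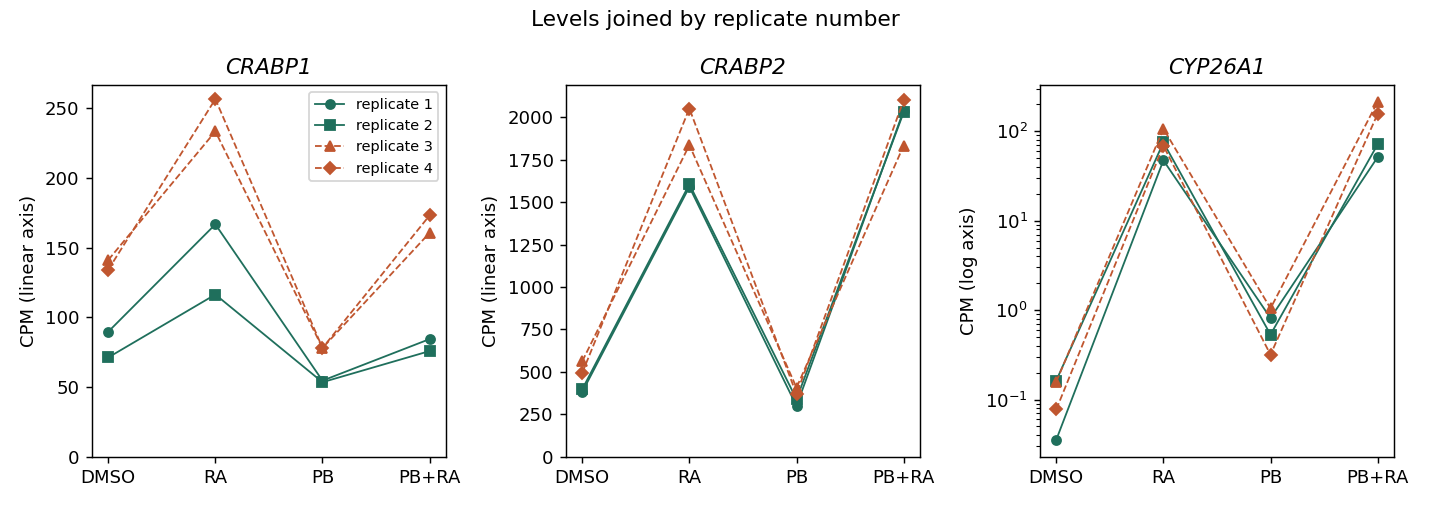
CPM (y axis) of CRABP1, CRABP2 and CYP26A1 in the 4 groups (x axis), with the libraries of 1 replicate number joined; solid green lines are replicates 1 and 2 and dashed orange lines replicates 3 and 4, and the axis of CYP26A1 is logarithmic. All 4 CRABP1 lines rise with RA and fall with PB, at 2 heights, and the CYP26A1 lines part with PB+RA.

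The level of CRABP2 relative to CRABP1, per kilobase, therefore rose in the groups given RA, from 3.88 ± 0.745 in DMSO and 4.81 ± 0.598 in PB to 8.68 ± 2.44 in RA and 16.5 ± 7.05 in PB+RA. In PB+RA the ratio was 21.4 and 23.7 in replicates 1 and 2 against 10.1 and 10.8 in replicates 3 and 4. The lowest library given RA (6.97) lay above the highest without it (5.61).

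**Figure D4:**
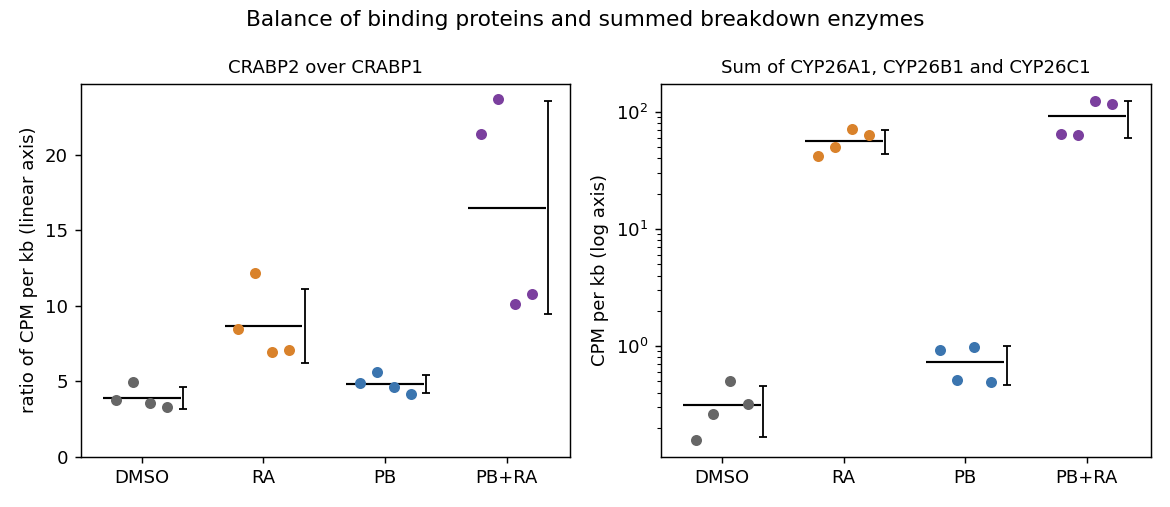
Left, the ratio of CRABP2 to CRABP1 in CPM per kb on a linear axis; right, the summed CPM per kb of CYP26A1, CYP26B1 and CYP26C1 on a log axis, both by group (x axis). Points are libraries in order of replicate number, and lines and bars are mean and SD (n = 4); the ratio reaches 23.7 in PB+RA and stays at or below 5.61 without RA.

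DHRS3 and RDH10, the members that act between retinol and retinaldehyde, rose with RA and were not called with PB. RDH12, a retinol dehydrogenase outside the members, is given below with the other handling genes. DHRS3, the reductase that turns retinaldehyde back to retinol, went from 1.56, 1.83, 2.09 and 1.39 CPM in DMSO to 5.57, 8.57, 6.26 and 6.80 with RA, without overlap, a log2 fold change of 1.97 ± 0.18 (adjusted p 6.9e-07). With PB+RA it was at 8.07, 10.0, 7.27 and 6.41 CPM, 0.21 ± 0.16 above RA (adjusted p 0.292). With PB it was at 1.48 ± 0.125 CPM (log2 difference -0.22 ± 0.19, adjusted p 0.365). At 30 to 66 counts per library without RA, this was the member with the fewest counts apart from the breakdown enzymes and ALDH1A2.

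RDH10, the dehydrogenase that works in the other direction, moved from 20.3, 20.2, 23.2 and 23.2 CPM in DMSO to 48.5, 49.1, 67.2 and 71.1 with RA (log2 1.43 ± 0.14, adjusted p 2.29e-06). PB+RA gave 48.6, 66.1, 66.4 and 66.1 CPM. Its difference from RA was 0.05 ± 0.14 (adjusted p 0.786, 95% interval -0.24 to 0.34), and that between PB and DMSO -0.10 ± 0.14 (adjusted p 0.568). The sets of replicates differed in direction with PB, at 0.13 in replicates 1 and 2 (adjusted p 0.472) and -0.41 in replicates 3 and 4 (adjusted p 0.000215, under the fold minimum). RA thus gave 2.39 to 3.07 times the DMSO level of RDH10 and 3 to 4.88 times that of DHRS3 within replicate numbers. RDH10 lies on chromosome 8 beside the ribosomal protein gene RPL7, which spans part of it on the opposite strand at 629 CPM on average, without shared exons.

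ALDH1A2, the enzyme that makes RA, was all but absent, with 1, 0, 1 and 0 counts in DMSO, 1, 0, 4 and 2 under RA, 0, 0, 1 and 0 under PB, and 2, 1, 4 and 2 under PB+RA. Per M counts, the 7 counts with RA were 3.94 times the 2 counts of DMSO (95% counting interval 0.75 to 38.9), and the 9 with PB+RA 5.39 times (1.12 to 51.3). The first interval includes 1 and the second does not, and both cover counting error only.

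STRA6, the retinol uptake receptor, was the member called higher with PB in the fit without a block, and the calls of CYP26B1 and CYP26A1 under other fits are given above. It stood at 513.2, 420.2, 440.1 and 418.7 CPM in DMSO and at 696.5, 646.5, 690.2 and 630.1 with PB, a log2 fold change of 0.57 ± 0.067 (adjusted p 2.56e-06) without overlap. After the correction for GC content and length this was 0.43 (adjusted p 7.65e-06), under the fold minimum. RA gave 534.7, 532.5, 541.5 and 543.6 CPM, above DMSO in 4 of 4 replicate numbers but under the fold minimum (0.26 ± 0.067, adjusted p 0.00767). After the same correction the RA difference was 0.085 (adjusted p 0.239).

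The highest levels of STRA6 were with both agents, at 911.5, 820.4, 834.8 and 750.8 CPM, which lay above RA in all libraries (0.61 ± 0.068, adjusted p 1.23e-06). The difference from PB was 0.29 ± 0.067 (adjusted p 0.00307), again without overlap and under the fold minimum. The interaction term was 0.03 ± 0.095 (95% interval -0.17 to 0.23), so the log2 changes added up within this error. STRA6 shares exonic bases with CCDC33 on the opposite strand, which held 11.3 CPM on average against 620 for STRA6.

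**Figure D5:**
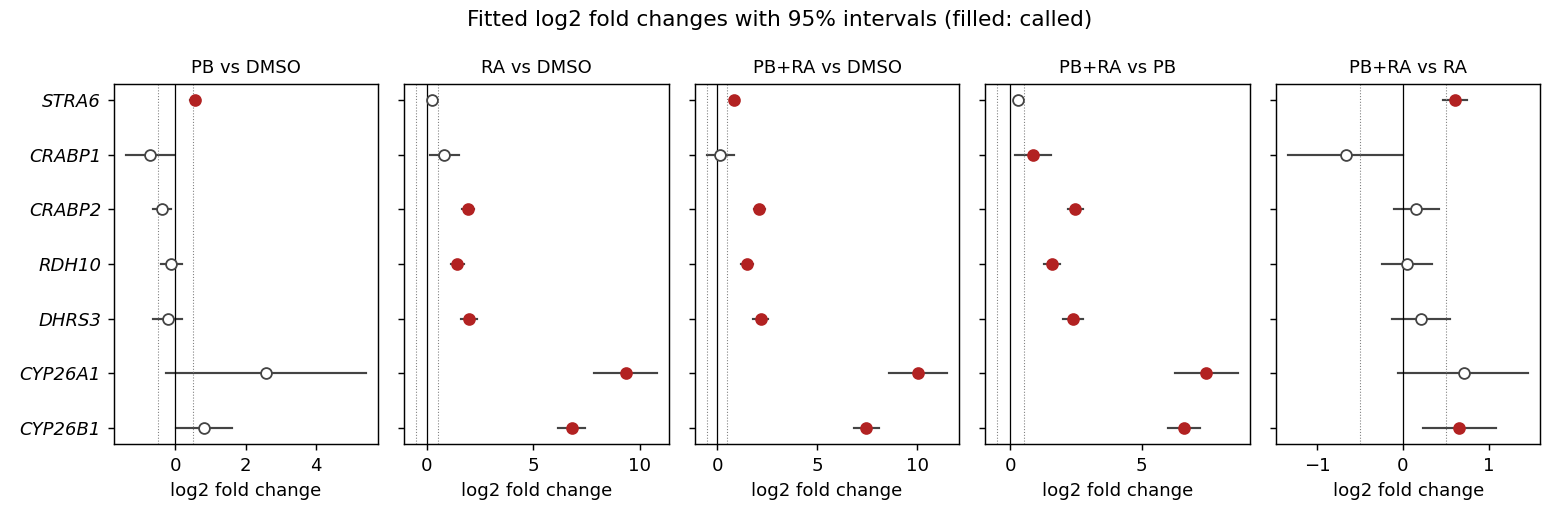
Log2 fold changes (x axis) of the 7 tested members (rows) in the 5 comparisons (panels), with 95% intervals as bars; filled points were called, and dotted lines mark the fold minimum of 0.5. CYP26A1 and CYP26B1 lie at 6.63 to 10.05 in the 3 comparisons that add RA, and STRA6 is the only filled point with PB.

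In DMSO the levels per kilobase ran, from the top, CRABP2, CRABP1, STRA6, RDH10, DHRS3, CYP26B1 and CYP26A1, at 424 ± 78.6, 114 ± 35.5, 58.4 ± 5.80, 4.07 ± 0.318, 0.489 ± 0.0869, 0.276 ± 0.132 and 0.0366 ± 0.0211 CPM per kb. DHRS3 and CYP26B1 overlapped between libraries. With RA the order was CRABP2, CRABP1, STRA6, CYP26B1, CYP26A1, RDH10 and DHRS3, and CYP26B1 and CYP26A1 overlapped, so both breakdown enzymes passed both retinaldehyde enzymes in level.

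For each tested member, the genes whose log2 CPM followed it most closely over the 16 samples were taken from 13459 genes averaging 1 CPM or more. The samples share 4 treatments, so any gene that separates the RA groups scores high. CYP26A1 was most like LINC01587 (r = 0.989), PRKCH (0.986) and JARID2 (0.98), and CYP26B1 most like OTUD1 (0.986), SLC6A17 (0.984) and ITGA1 (0.983). The nuclear factor gene MAFK came first for CRABP2 (0.981) and for RDH10 (0.979). CRABP1 was most like FBXL7 (0.979), DHRS3 most like DCSTAMP (0.978) and STRA6 most like DENND6B (0.989). The members themselves correlated at 0.989 for CYP26A1 with CYP26B1, and at 0.538 for CYP26A1 with CRABP1.

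Other genes of retinoid handling moved in both directions. Of 38 such genes listed, 27 were in the table and 14 passed the filter on low counts. RA raised 3 of the 14 and lowered 0, PB raised 1 and lowered 1, and PB+RA raised 5 and lowered 2. Over all genes, the shares raised were 10.8%, 16.9% and 24.0% and the shares lowered 2.54%, 11.3% and 17.9%, in the same order. With RA, the carotenoid-cleaving BCO2 rose from 2.21 ± 0.865 to 7.63 ± 2.41 CPM (log2 1.77 ± 0.32, adjusted p 0.000542). It was also higher with PB+RA, by 1.46 on the log2 scale.

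ALDH1A3, another enzyme that makes RA, rose with RA from 0.815 ± 0.275 to 3.15 ± 1.35 CPM (1.95 ± 0.33, adjusted p 0.000265). In PB+RA it stood at 1.23 ± 0.200 CPM, 1.36 ± 0.32 below RA on the log2 scale (log2 difference -1.36, adjusted p 0.00164), close to the 1.17 ± 0.324 of PB. In replicates 1 and 2 alone neither call was made (1.29 with RA and -0.78 against RA, adjusted p 0.0881 and 0.205).

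PB raised the retinol dehydrogenase gene RDH12, from 1.73 ± 0.183 to 3.65 ± 1.22 CPM (1.08 ± 0.28, adjusted p 0.00403), reaching 5.88 ± 1.43 under PB+RA (1.74 ± 0.28, adjusted p 3.61e-05). RDH12 at a mean of 3.49 CPM overlaps exons of ZFYVE26 on the other strand at 26.1 CPM, so its counts are uncertain. Its PB call was lost in replicates 1 and 2 alone (1.17, adjusted p 0.158), and blocking on replicate number also called it higher with RA and in PB+RA against PB (0.62 and 0.68, adjusted p 0.0042 and 0.00043).

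CYP1B1, a P450 enzyme that can act on retinoids, went the other way, from 2.88 ± 0.904 CPM in DMSO to 1.61 ± 0.599 with PB (-0.83 ± 0.31, adjusted p 0.0296) and on to 0.595 ± 0.226 under PB+RA (-2.29 ± 0.34, adjusted p 1.77e-05). It overlaps RMDN2 on the other strand at 3.01 CPM. The PB call was lost without DMSO replicate 1 or 2 or PB replicate 3 or 4 (-0.66 to -0.80, adjusted p 0.0589 to 0.0965). Its interaction term of -1.17 (adjusted p 0.178) passed once the block was fitted (-1.17, adjusted p 0.00328). FABP5, a carrier of fatty acids and RA, was called lower than DMSO only with PB+RA (-0.66 ± 0.11, adjusted p 5.69e-05), at 41.4 ± 6.50 CPM against 64.1 ± 5.23. It was also lower with RA (-0.35, adjusted p 0.0185) and with PB (-0.34, adjusted p 0.0158), within the fold minimum.

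AKR1C3, an aldo-keto reductase, was at 65.9 ± 6.16, 65.6 ± 8.98 and 65.7 ± 8 CPM in DMSO, RA and PB, and at 112 ± 11.4 in PB+RA (log2 0.73 ± 0.11 over DMSO, adjusted p 1.15e-05). DGAT1, which can esterify retinol, rose with PB+RA by 0.67 ± 0.074 (adjusted p 5.76e-07), and by 0.49 in replicates 3 and 4 alone, under the fold minimum. DGAT1 overlaps HSF1 on the other strand.

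Of the 6 receptor genes, 4 were tested. RA raised RARA (1.14) and RARB (1.77), PB lowered RXRA (-1.08), and PB+RA raised RARA (1.21), RARB (1.74) and RARG (0.56) and lowered RXRA (-0.88), with adjusted p of at most 4.72e-05. The RARG call was lost after the correction for GC content and length (0.35), in replicates 3 and 4 alone (0.33) and without DMSO replicate 1 or PB+RA replicate 1 or 2 (0.46 to 0.50).

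Of 13 other genes known to respond to RA, 11 were in the table and 7 were tested, of which RA raised 3, PB 1 and PB+RA 4, that is 42.9%, 14.3% and 57.1% of the 7 against 10.8%, 16.9% and 24.0% of all genes. TGM2, a transglutaminase, rose from 31.8 ± 4.60 to 187 ± 56.6 CPM with RA (2.54 ± 0.22, adjusted p 1.11e-06) and stood at 77.3 ± 16.5 with PB+RA (1.25 ± 0.21, adjusted p 0.000103), below RA by 1.29 on the log2 scale (log2 difference -1.29 ± 0.21, adjusted p 9.67e-05). TGM2 overlaps exons of RPRD1B on the other strand at 43.5 CPM on average, so its counts are uncertain. MEIS1, a homeobox gene, rose by 1.15 in both groups (adjusted p 3.76e-05 and 5.31e-06). RET, a receptor tyrosine kinase, was called over DMSO only with PB+RA (0.75 ± 0.052, adjusted p 2.28e-09). It was also higher with RA (0.38, adjusted p 4.45e-05) and with PB (0.15, adjusted p 0.0266), under the fold minimum. RARRES1, at 1.46 ± 0.286 CPM in DMSO, was raised by all 3 treatments (0.55, 0.59 and 0.98 for RA, PB and PB+RA, adjusted p 0.0268, 0.0128 and 0.000152). Its RA and PB calls were lost in replicates 1 and 2 alone (0.35 and 0.39), without DMSO replicate 4 (0.44 and 0.47) and without 1 other library or more each, and it overlaps MFSD1 on the other strand at 58.3 CPM, so its counts are uncertain.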

How the data were processed

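RNA sequencing was done on polyadenylated RNA from the 16 samples, with strand-specific paired-end libraries. Per the labels and methods, the authors trimmed reads with Trim Galore 0.6.4, aligned them to hg19 with STAR 2.6.1d and deposited raw counts per gene, without normalization, and CPM made from each sample's total, which equalled the count over the total within 5e-12. The annotation and the strand used for counting are not given in the sources used here, so opposite-strand overlaps leave counts uncertain. The same holds for the same-strand overlap of CYP26A1 and CYP26C1 with an unnamed gene model. The authors' deposited log2 fold changes and p-values from DESeq2 1.32.0 were not used.

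Counts were analysed in R 4.3.3 with edgeR 4.0.16: filterByExpr, TMM, 1 quasi-likelihood fit with a coefficient per group, and Benjamini-Hochberg adjustment over 15415 genes. Every adjusted p is from that fit unless DESeq2 (1.42.0) or a setting is named. SE is the log2 fold change over the root of F. A sum of 0 over a group was taken to allow 3 counts, which covers counting error alone. Samples of the same replicate number, taken from the titles, deviated together in all 24 pairs (r = 0.33 to 0.573). The 72 pairs of different numbers ran from r = -0.492 to 0.447, which overlaps that range. This check did not separate single numbers from the sets of replicates given above. It therefore leaves undecided whether each number pairs its samples, and the block takes the numbers as labelled. Gene models and sequences are GENCODE v44 lifted to GRCh37, the assembly of hg19. Procedures were tested on simulated data. The members and gene lists were chosen with earlier results of these data known. All 9 members are named. From the other lists, the genes called with RA or PB+RA (for handling genes also PB) are named, at most 8 per list and comparison, except 1 gene not reported here, and for each member up to 3 genes of most similar pattern. Alternatives were another scaling, other filters, DESeq2, a replicate block, a GC and length correction, fewer samples and other fold minimums. TMM-scaled CPM was added after seeing the data.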

Additional observations from a re-analysis of the deposited data

Results flagged for a closer look

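The CPM values of the 9 members were examined for a library that stood far from the other 3 of its group, in the 35 combinations of gene and group with any counts, and 3 did. Chance alone gives about 1 in 20, a rate that does not apply where 1 library has counts and the others have 0, as for ALDH1A2 and CYP26C1, since such a library always stands apart by this measure. RDH10 was at 48.6 CPM in PB+RA replicate 1, against 66.1 to 66.4 in the others. ALDH1A2 was at 0.0475 CPM in PB replicate 3, which is 1 count, against 0 in the others. CYP26C1 was at 0.0905 CPM in PB replicate 4, which is 2 counts, against 0 in the others.

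For 2 of the named genes outside the members, the interaction term showed that the response to RA differed with and without PB. AKR1C3 had a term of 0.75 ± 0.15 (edgeR, adjusted p 0.00723), with the higher level in PB+RA alone, and in replicates 1 and 2 alone it was 0.67 (adjusted p 0.168). ALDH1A3 had a term of -1.89 ± 0.47 (edgeR, adjusted p 0.0273), with the higher level in RA alone. That call was lost in replicates 1 and 2 alone (-1.27, adjusted p 0.418) and without any single one of DMSO replicates 1, 3 and 4, RA replicates 2, 3 and 4, PB replicate 2 and PB+RA replicates 1 and 4 (adjusted p 0.051 to 0.0736).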

How the results depend on the processing

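Across 804 combinations of member, comparison and alternative, 760 kept both direction and side of the threshold, 33 passed it only under the alternative, 11 lost it, and 0 called changes reversed; in 25 of the 760 the sign differed while neither value was called. The number of members called was within 1.5 times of the main count under all alternatives for RA over DMSO and for PB+RA over DMSO and over PB. With a log2 minimum of 1, PB+RA lost STRA6 over DMSO (0.86) and CRABP1 over PB (0.87). With no fold minimum, STRA6 was also called for RA over DMSO (0.26) and for PB+RA over PB (0.29). At the minimum of 0.5, the number was 5 to 6 for RA over DMSO when 1 library was left out, 6 for PB+RA over DMSO and 5 to 6 over PB. With PB against DMSO it was 1, and 3 with the replicate block, 0 with the GC and length correction, 2 with only the 2 groups fitted, 3 in replicates 1 and 2, 2 in replicates 3 and 4, 2 with no fold minimum, 0 with a log2 minimum of 1, 3 with DESeq2 and 1 to 2 when 1 library was left out (CRABP1 added without DMSO replicate 2, CYP26B1 without DMSO replicate 3). For PB+RA against RA it was 2, and 4 with the block, with or without the GC correction, 4 in replicates 3 and 4, 0 with a log2 minimum of 1, 1 with DESeq2 and 2 to 3 when 1 library was left out. For the interaction it was 0, and 1 with the block, with or without the GC correction, 1 in replicates 1 and 2, 1 with DESeq2 and 0 to 1 when 1 library was left out. The share of all genes called was not taken under the alternatives, so these counts cannot be set against one. The cause of these shifts was not tested.

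The replicate block changed calls of CRABP1 (PB, RA and PB+RA against RA), CYP26B1 (PB), CYP26A1 (PB+RA against RA), CRABP2 (interaction), RDH12 (RA, and PB+RA against PB) and CYP1B1 (interaction), each given above, and no other call of a member or a named gene of the retinoid lists. Group means moved by less than 1 SD with TMM-scaled CPM, an alternative chosen after seeing the data. At this depth ALDH1A2, with at most 4 counts in a library, and CYP26C1, with at most 5, did not pass the filter and got no test.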
